A study of Rattus norvegicus with 6 samples.

Results

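The genes described here encode the subunits of the proteasome, its activators and the chaperones that assemble it, in the corneal epithelium of diabetic and normal rats. They are the protein coding loci whose symbol begins with Psma, Psmb, Psmc, Psmd, Psme or Psmg and a digit, with a mean of at least 0.5 FPKM (fragments scaled by locus length and library total) over the 6 libraries. Of 49 such symbols 47 reached this level, among 42551 loci that did so of 61453 in all. Both symbols left out are tissue-restricted core subunits: *Psma8*, an alpha subunit of the testis, had no count in any library, and *Psmb11*, the beta subunit of the thymic cortex, averaged 0.0138 FPKM. *Psmc3ip*, a factor of meiotic recombination, and *Psme3ip1*, a nuclear protein that binds *Psme3*, were found by their names alone and are not parts of the particle, which leaves 45 proteasome genes. The diabetic group held 3 libraries of male Brown Norway rats of 150 to 200 g that had received a single intraperitoneal dose of 50 mg/kg streptozotocin (STZ), a toxin of the insulin-producing cell, and had blood glucose above 16.67 mmol/l. The normal group held 3 libraries of rats of the same sex and strain injected with citrate buffer. All epithelia were scraped from the cornea at 16 weeks, no genotype was altered, and ages were not given. The study used 6 rats in all and epithelium of 6 corneas per group, and whether each library holds 1 animal is not stated. If a library is not a separate animal, the p-values measure technical spread. Library totals were 87040253, 62288901 and 64263130 counts in diabetic replicates 1, 2 and 3, and 76500184 to 81139312 counts in the normal libraries. *Krt12*, the keratin that defines corneal epithelium, was at 3858 to 4455 FPKM in diabetic and 3660 to 4223 FPKM in normal libraries. Of 7 corneal epithelium markers tested 5 had a log2 fold change below 0 and none was called. Among the 5 is *Aldh3a1* (−0.34 after normalization), although its mean was 9631 FPKM in diabetic and 9304 FPKM in normal libraries. The loci of *Krt5* and *Krt14* are joined to other keratin genes, so their values are uncertain. *Upk1b*, a membrane protein of surface cells, lay above without overlap (303 to 346 FPKM in diabetic and 244 to 272 FPKM in normal libraries).

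The proteasome degrades proteins that carry ubiquitin chains. Its core is a barrel of stacked rings, with outer rings of alpha subunits that gate the entrance and inner rings of beta subunits, of which *Psmb5*, *Psmb6* and *Psmb7* carry the cutting sites. A regulatory particle caps the barrel: its base holds the ATPases (*Psmc1* to *Psmc6*) that unfold the substrate, and its lid removes the ubiquitin. Under interferon, cells build *Psmb8*, *Psmb9* and *Psmb10* into new cores in place of the constitutive cutting subunits, which gives the immunoproteasome and peptides suited to MHC class I. In a stratified epithelium such as that of the cornea, the proteasome serves protein turnover in cells that divide at the base and are shed at the surface.

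None of the 45 proteasome genes passed the test between diabetic and normal epithelium. The test was limma on quantile-normalized log2(FPKM + 1), and a call required a Benjamini-Hochberg adjusted p under 0.05 over all loci and a fold over 1.2. It called 11 loci of 42551 (0.0259%). Adjusted p-values of the 45 genes ran from 0.953 to 1.00, and 1 gene, *Psmg3*, had an unadjusted limma p under 0.05 (lower in diabetic libraries; 2.35% of all loci had such a p in this direction and 2.44% in the other). The quasi-likelihood test of edgeR, which called 0.0141% of loci, and DESeq2, which called 0.233%, also called 0 of the 45. Log2 fold changes (diabetic over normal, of FPKM + 1, so that changes of low genes are understated) were positive for 20 genes and negative for 25. Their median was −0.010, against −0.0049 over all loci tested and −0.0034 over protein coding loci, and it turned to 0.0031 with edgeR and 0.0081 with DESeq2. In bulk tissue, a change in the number of cells of a type and a change in RNA per cell cannot be told apart.

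The median standard error (SE) of the 45 genes was 0.12 on the log2 scale, against 0.15 for protein coding loci and 0.21 for all loci. For 41 of the 45 genes the 95% interval of the difference lay within 1.5-fold of FPKM + 1 in both directions. Among them were all 14 constitutive core subunits and the 17 base and lid genes found by these symbols. The intervals of *Psmg3*, *Psmg4*, *Psmb10* and *Psmb8* were wider. For low genes among the 41, such as *Psmb9*, *Psmg2* and *Psmd10* (means 2.34, 2.90 and 1.54 FPKM), such bounds understate the range for FPKM itself. Over the 17 base and lid genes the interval bounds ran from 0.759-fold to 1.34-fold, and over the 14 core genes from 0.731-fold to 1.32-fold.

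**Figure D1:**
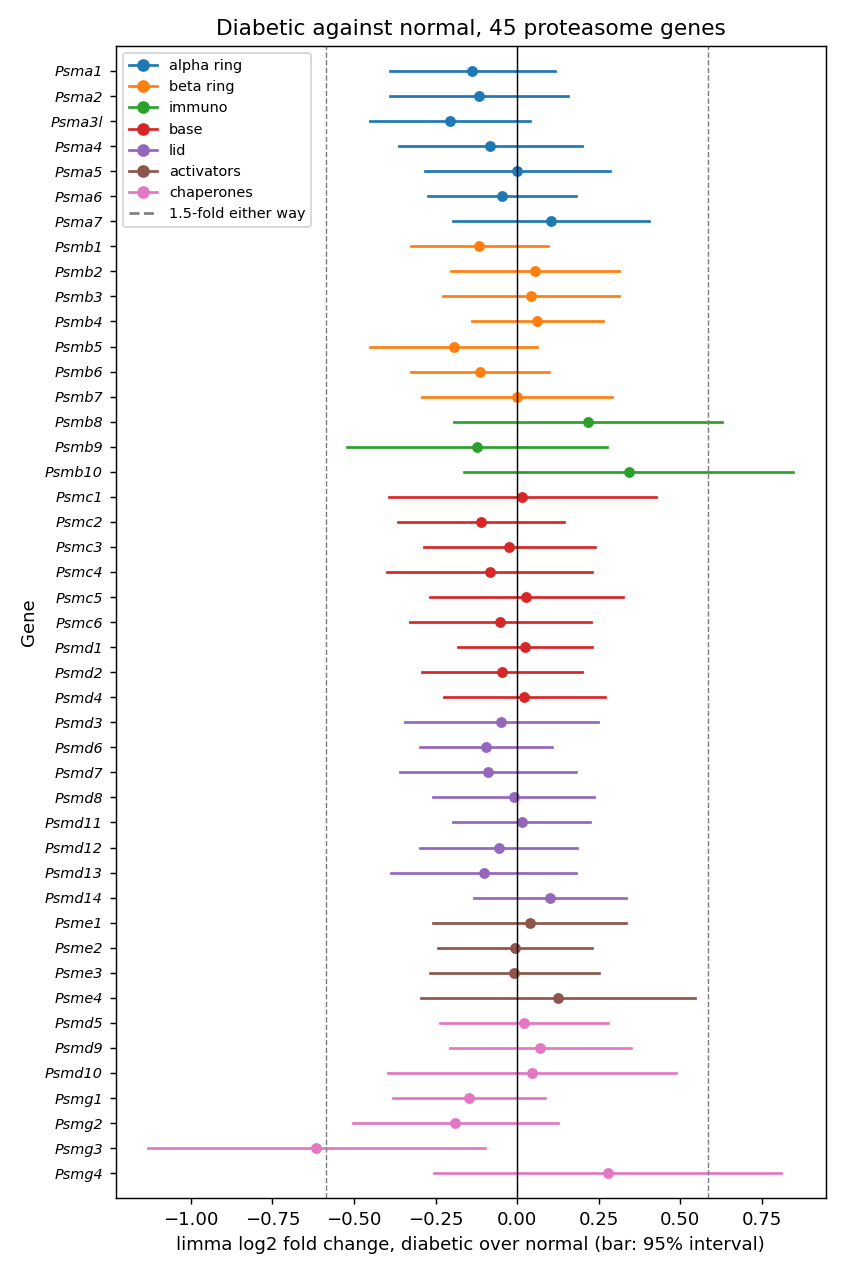
Log2 fold change of diabetic over normal libraries for the 45 proteasome genes, ordered by class. Points are limma estimates on the log2(FPKM + 1) scale, bars are 95% intervals from 3 libraries a group, and dashed lines mark 1.5-fold; the interval of 44 genes holds 0, and that of *Psmg3* does not.

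None of the 3 immunoproteasome genes was called, and their estimates were less precise than those of the constitutive core, with a median SE of 0.18 on the log2 scale against 0.11. Promoters of the 3 subunits and of their constitutive counterparts are shown because these pairs exchange places in the core and are compared below. The sequences are the 250 bases before the RefSeq start site (assembly GRCr8), 5′ to 3′ on the gene's strand. *Psmb8* lies at chr20:4657032-4657281 (- strand), *Psmb9* at chr20:4668750-4668999 (+ strand), *Psmb10* at chr19:50743293-50743542 (- strand), *Psmb5* at chr15:32047380-32047629 (- strand), *Psmb6* at chr10:55737638-55737887 (+ strand) and *Psmb7* at chr3:42827471-42827720 (- strand). Capitals mark matches, on either strand, to the core of the interferon-stimulated response element (GAAA, any 2 bases, GAAA), the gamma-activated site (TTCNNNGAA) or the core of the antioxidant response element (TGACNNNGC).
Psmb8: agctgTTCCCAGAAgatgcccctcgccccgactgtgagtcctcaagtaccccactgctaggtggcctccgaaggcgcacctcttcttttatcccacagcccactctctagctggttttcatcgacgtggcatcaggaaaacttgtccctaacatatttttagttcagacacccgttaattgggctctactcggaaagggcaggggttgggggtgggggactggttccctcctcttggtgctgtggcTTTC
Psmb9: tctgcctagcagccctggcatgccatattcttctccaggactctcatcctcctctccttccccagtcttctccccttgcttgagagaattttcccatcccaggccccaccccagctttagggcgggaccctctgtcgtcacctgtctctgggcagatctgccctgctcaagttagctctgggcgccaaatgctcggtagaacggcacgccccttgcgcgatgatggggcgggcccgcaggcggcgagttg
Psmb10: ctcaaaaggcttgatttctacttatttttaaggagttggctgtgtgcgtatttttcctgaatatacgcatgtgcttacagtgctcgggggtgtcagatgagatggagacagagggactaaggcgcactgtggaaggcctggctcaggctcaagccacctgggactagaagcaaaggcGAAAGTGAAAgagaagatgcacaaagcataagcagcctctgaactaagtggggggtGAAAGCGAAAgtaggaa
Psmb5: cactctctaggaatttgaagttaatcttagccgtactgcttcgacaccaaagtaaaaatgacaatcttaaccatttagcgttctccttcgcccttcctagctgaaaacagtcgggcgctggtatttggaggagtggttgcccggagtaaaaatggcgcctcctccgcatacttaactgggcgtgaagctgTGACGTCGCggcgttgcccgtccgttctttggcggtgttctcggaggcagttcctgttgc
Psmb6: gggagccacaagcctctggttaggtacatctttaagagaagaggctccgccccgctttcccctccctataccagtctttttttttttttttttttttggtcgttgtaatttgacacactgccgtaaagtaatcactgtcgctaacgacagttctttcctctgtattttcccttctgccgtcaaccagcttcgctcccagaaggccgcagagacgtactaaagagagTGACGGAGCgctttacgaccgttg
Psmb7: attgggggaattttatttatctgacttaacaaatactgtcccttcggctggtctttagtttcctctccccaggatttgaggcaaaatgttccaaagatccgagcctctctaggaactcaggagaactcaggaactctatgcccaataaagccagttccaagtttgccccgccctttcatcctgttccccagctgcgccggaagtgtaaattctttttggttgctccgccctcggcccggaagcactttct

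*Psmb10* held 2 matches to the interferon element, 73 and 17 bases before the start. *Psmb8* held a gamma-activated site 245 bases before the start, and its last 4 capitals open an interferon element on the opposite strand (TTTCGCTTTC as read here) that runs over the start. *Psmb9* held no match to these 3 motifs. *Psmb5* and *Psmb6* each held an antioxidant element, 60 and 24 bases before the start, and *Psmb7* held none of the 3. A RefSeq promoter was matched for 41 of the 45 proteasome genes (all but *Psma7*, *Psmd6*, *Psmd12* and *Psmd14*), each of 300 bases, from 250 before to 50 after the start. The interferon element stood in 7 of the 41, and in 3.92% of all 33469 promoters of this length. The antioxidant element stood in 8 of 41 (12.1% of all promoters), of which 3 were constitutive beta subunits. The gamma-activated site stood in 4 of 41 (8.87%), and the CCAAT box (CCAAT) in 20 of 41 (37.5%). Motifs were counted separately, whether or not they overlapped. A match describes letters only, and none was tested for binding.

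*Psmb10*, which replaces the trypsin-like *Psmb7*, was at 11.2, 10.3 and 5.84 FPKM in diabetic replicates 1, 2 and 3 and at 7.28, 6.53 and 6.62 FPKM in the normal libraries. Diabetic replicates 1 and 2 lay above all normal libraries and diabetic replicate 3 below them, so the groups overlapped. The log2 fold change was 0.34 (SE 0.22), with an unadjusted limma p of 0.154 and an adjusted p of 0.953. It was 0.61 without diabetic replicate 3, where all remaining diabetic values exceed the normal ones, and still not called. Leaving out diabetic replicate 1 gave 0.19, and leaving out diabetic replicate 2 gave 0.23. *Psmb8*, which replaces the chymotrypsin-like *Psmb5*, was at 1.56, 2.21 and 1.93 FPKM in diabetic and 1.87, 1.53 and 1.16 FPKM in normal libraries. These values overlap as well (log2 fold change 0.22, SE 0.18), and the difference ran from 0.098 without normal replicate 3 to 0.33 without normal replicate 1. *Psmb9*, which replaces the caspase-like *Psmb6*, was at 2.04, 2.72 and 1.82 FPKM in diabetic and 2.89, 2.44 and 2.14 FPKM in normal libraries. Its log2 fold change was −0.12 (SE 0.17), and it ran from −0.25 without diabetic replicate 2 to −0.014 without diabetic replicate 3. The 3 log2 fold changes thus differed in sign. The loci in the files' build rn6 are chr20:3990613-3993769 for *Psmb8*, chr20:3973420-3978845 for *Psmb9* and chr19:37909546-37912027 for *Psmb10*, of which *Psmb10* is typed as protein coding alone and *Psmb8* and *Psmb9* as protein coding and retained intron. Counts behind these values were 428 to 1100 in diabetic and 569 to 654 in normal libraries for *Psmb10*, 294 to 326 in diabetic and 224 to 350 in normal libraries for *Psmb8*, and 204 to 307 in diabetic and 304 to 397 in normal libraries for *Psmb9*.

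**Figure D2:**
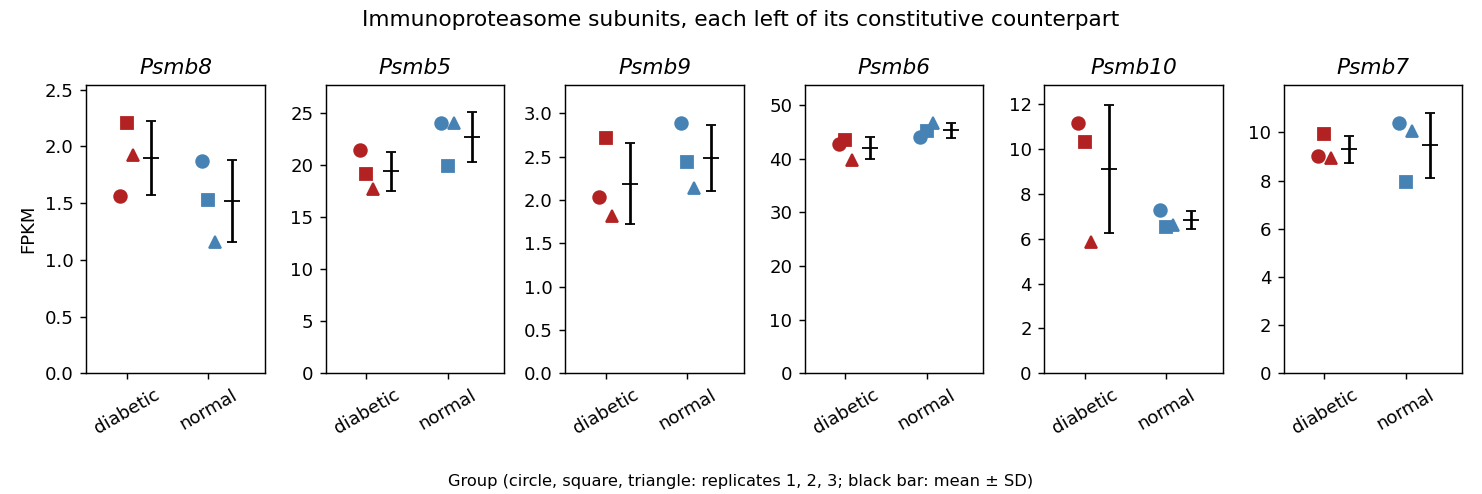
FPKM of each immunoproteasome subunit beside its constitutive counterpart, in diabetic (left in each panel) and normal libraries; symbols are the 3 replicates and black bars the mean ± SD. *Psmb10* spans 5.84 to 11.2 FPKM in diabetic libraries and 6.53 to 7.28 FPKM in normal ones, and each panel has its own axis from 0.

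The constitutive counterparts were *Psmb5* at 21.4, 19.1 and 17.7 FPKM in diabetic and 24.0, 19.9 and 24.1 FPKM in normal libraries, and *Psmb6* at 42.7, 43.5 and 39.7 FPKM in diabetic and 43.9, 45.1 and 46.7 FPKM in normal libraries. *Psmb7* was at 9.02, 9.95 and 8.92 FPKM in diabetic and 10.4, 7.93 and 10.1 FPKM in normal libraries. All 3 diabetic values lay below all normal values for *Psmb6* only. The *Psmb5* locus carries a second name of a small RNA gene, so its counts cannot be assigned to *Psmb5* alone. The ratio of *Psmb8* to *Psmb5* FPKM was 0.0991 ± 0.0230 in diabetic and 0.0676 ± 0.0169 in normal libraries (SD, n = 3 each), a log2 difference of 0.56 (exact two-sided permutation p = 0.3). The ratio of *Psmb9* to *Psmb6* was 0.0520 ± 0.0091 and 0.0552 ± 0.0101 in diabetic and normal libraries (log2 difference −0.086, exact permutation p = 0.7), and that of *Psmb10* to *Psmb7* was 0.975 ± 0.295 and 0.727 ± 0.0863 (0.38, exact permutation p = 0.4). Adjusted over the 3 ratios the exact permutation p-values were 0.6, 0.7 and 0.6, and 3 against 3 libraries cannot give an exact p below 0.1. Of the summed FPKM of the 6 cutting subunits, the immunoproteasome held 16.8%, 17.3% and 12.6% in diabetic and 13.3%, 12.6% and 10.9% in normal libraries, which overlap.

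Cells of the immune system carry the immunoproteasome at high levels. Of 13 leukocyte markers 3 reached the filter, and the T cell gene *Cd3d*, the cytotoxic cell gene *Nkg7* and the B cell gene *Cd79a* had 0 counts in all 6 libraries, which allows up to 0.0345 to 0.0482 CPM (counts scaled to the library total) in diabetic and 0.0370 to 0.0392 CPM in normal libraries from counting error alone. The summed level of the 13 markers was 30.4 to 35.5 FPKM in diabetic and 31.3 to 32.5 FPKM in normal libraries, most of it from the *Cd68* locus, which is joined to *Mpdu1* and so uncertain (15.6 to 20.8 FPKM in diabetic and 16.5 to 18.5 FPKM in normal libraries), and from the lysozyme gene *Lyz2* (9.15 to 16.7 FPKM in diabetic and 11.6 to 13.9 FPKM in normal libraries). Both lie above *Psmb8* and *Psmb9* in every library, and the part of such cells in the immunoproteasome values was not tested. The 17 interferon response genes tested had 13 positive and 4 negative log2 fold changes with a median of 0.082, and 0 were called. The 4 negative ones were *Mx2* (−0.26), *Isg15* (−0.23), *Mx1* (−0.13) and *Jak2* (−0.0089). *Ifit3* and *Gbp2* were both at 0.038. For the 17 genes, the mean deviation from the 6-library mean was 0.071, 0.17 and −0.15 on the log2 scale in diabetic replicates 1, 2 and 3. It was 0.12, −0.064 and −0.15 in the normal libraries. Like *Psmb10*, the list was higher in diabetic replicates 1 and 2 than in diabetic replicate 3, and its part in the *Psmb10* values was not tested. *Irf1*, an interferon-induced transcription factor of immunoproteasome genes, was at 32.5, 69.4 and 40.5 FPKM in diabetic and 39.9, 35.4 and 31.6 FPKM in normal libraries (log2 fold change 0.36, SE 0.26). *Irf2*, a factor of the same family that binds the same elements, was at 3.99, 3.41 and 4.84 FPKM in diabetic and 3.97, 2.93 and 3.38 FPKM in normal libraries. *Ifnar1*, a chain of the type I interferon receptor, was at 16.1, 14.8 and 16.3 FPKM in diabetic and 13.2, 13.3 and 16.2 FPKM in normal libraries, and its groups overlapped as well. The kinase *Jak1*, named after its values were seen, lay above without overlap, at 27.0, 27.2 and 27.7 FPKM in diabetic and 26.5, 25.5 and 25.5 FPKM in normal libraries (0.085, SE 0.09).

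The alpha ring, which forms the gate of the core, had 2 positive and 5 negative log2 fold changes with a median of −0.082 (−0.026 without normal replicate 3, −0.14 without diabetic replicate 1), and none of its 7 genes was called. *Psma6*, the most abundant of them, was at 45.1, 43.9 and 44.4 FPKM in diabetic and 47.1, 49.7 and 42.4 FPKM in normal libraries (log2 fold change −0.046). *Psma7* had the most positive value of the ring, with 14.1, 12.9 and 10.0 FPKM in diabetic and 12.0, 11.1 and 11.3 FPKM in normal libraries (0.10, SE 0.13). *Psma3l*, the rat locus listed for *Psma3*, had the most negative, with 8.58, 6.93 and 7.51 FPKM in diabetic and 8.68, 9.11 and 9.52 FPKM in normal libraries (−0.21, SE 0.11, limma p 0.087 before and 0.953 after adjustment). All 3 diabetic values of *Psma3l* lay below all 3 normal ones, the nearest being diabetic replicate 1 and normal replicate 1. The other 4 genes of the ring averaged 14.1 (*Psma4*) to 42.5 FPKM (*Psma2*), with log2 fold changes from −0.14 (*Psma1*) to 0.00031 (*Psma5*). The ring summed to 179, 167 and 150 FPKM in diabetic and 173, 173 and 180 FPKM in normal libraries.

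The 7 constitutive beta subunits had 4 positive and 3 negative log2 fold changes with a median of 0.00036 (−0.10 without normal replicate 2, 0.026 without normal replicate 1). *Psmb1*, a structural subunit and the most abundant of the ring, was at 68.6, 63.3 and 59.9 FPKM in diabetic and 71.3, 70.9 and 69.9 FPKM in normal libraries (−0.12, SE 0.09). Its groups did not overlap, and its normal values were close together. *Psmb4*, another structural subunit, had the most positive value, with 36.8, 34.8 and 31.9 FPKM in diabetic and 35.3, 32.2 and 33.2 FPKM in normal libraries (0.061, SE 0.09). *Psmb5* had the most negative, at −0.19 (SE 0.11), with overlapping groups. *Psmb2* (0.055) and *Psmb3* (0.044) lay between them. Over both constitutive rings, summed FPKM was 412, 383 and 359 in diabetic and 407, 399 and 412 in normal libraries.

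In the base, the log2 fold change was positive for 4 of 9 genes and negative for 5, with a median of −0.024 that turned positive with edgeR (0.0031), with DESeq2 (0.0081) and without diabetic replicate 3 (0.049), and was −0.11 without diabetic replicate 1. *Psmd2*, the scaffold that binds ubiquitin shuttle proteins, was the most abundant, at 33.2, 29.1 and 24.9 FPKM in diabetic and 31.3, 30.7 and 28.9 FPKM in normal libraries (−0.047, SE 0.11). Among the ATPases, *Psmc2* was at 14.9, 11.8 and 11.6 FPKM in diabetic and 14.3, 13.6 and 14.0 FPKM in normal libraries (−0.11, SE 0.11). *Psmc5*, also an ATPase, was at 8.89, 7.29 and 6.45 FPKM in diabetic and 7.88, 7.25 and 7.13 FPKM in normal libraries (0.028, SE 0.13). In both, diabetic replicate 1 was the highest and diabetic replicate 3 the lowest of all 6 libraries. *Psmc4* had the lowest FPKM of the base, 5.64, 4.41 and 4.11 in diabetic and 4.79, 4.95 and 5.53 in normal libraries. FPKM depends on the length of the merged locus, which is 9092 bases for *Psmc4* and 2305 bases for *Psmc5* as computed from counts and FPKM, so levels of different subunits need not reflect their mature transcripts. The other 5 base genes, among them the ubiquitin receptor *Psmd4* (0.022) and the scaffold *Psmd1* (0.024), had log2 fold changes from −0.052 (*Psmc6*) to 0.024. The loci of *Psmc1* and *Psmc5* carry the name of a small nucleolar RNA gene as well, and their values are uncertain.

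In the lid, the log2 fold change was above 0 for 2 of 8 genes and below 0 for 6, with a median of −0.052 (−0.11 without diabetic replicate 1, −0.0053 without diabetic replicate 3). *Psmd14*, the enzyme that cuts ubiquitin chains from the substrate, had the most positive value, with 16.6, 14.8 and 13.6 FPKM in diabetic and 14.7, 13.2 and 14.4 FPKM in normal libraries (0.10, SE 0.10). *Psmd13*, a structural subunit, had the most negative, with 16.1, 13.4 and 11.9 FPKM in diabetic and 16.2, 13.7 and 15.1 FPKM in normal libraries (−0.10, SE 0.12). Both ranges overlap. *Psmd3*, the most abundant lid gene, was at 30.6, 23.8 and 22.8 FPKM in diabetic and 28.0, 29.5 and 23.4 FPKM in normal libraries. *Psmd12*, the lowest, was at 9.76, 7.88 and 8.58 FPKM in diabetic and 9.45, 9.26 and 8.96 FPKM in normal libraries. *Psmd6* was at 12.1, 11.8 and 11.3 FPKM in diabetic and 12.75, 12.76 and 12.82 FPKM in normal libraries (−0.096, SE 0.09), without overlap. The other 3 lid genes had log2 fold changes of −0.089 (*Psmd7*), −0.010 (*Psmd8*) and 0.015 (*Psmd11*).

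Counting all classes, all 3 diabetic libraries lay below all 3 normal ones for 5 of the 45 genes (11.1%), and above them for 0. This held for *Psma3l*, *Psmb1*, *Psmb6*, *Psmd6* and the chaperone *Psmg1*. Over all loci 5.72% lay below without overlap and 3.94% above, and over protein coding loci 5.41% and 3.62%. The same 5 genes did not overlap after quantile normalization, where 4.87% of all loci lay below. The log2 fold changes of the 5 ran from −0.096 to −0.21, and each gene's adjusted limma p was 0.953 or above.

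Within the diabetic group most subunits of the regulatory particle ranked the libraries alike. After quantile normalization, diabetic replicate 1 was the highest of the 6 libraries for 11 of the 17 base and lid genes. Diabetic replicate 3 was the lowest for 10. Over all 45 genes these counts were 17 (37.8%, against 15.8% of protein coding loci) and 22 (48.9%, against 24.7%). The low diabetic replicate 3 was not particular to base and lid, as it was the lowest for 5 of the 7 alpha ring genes too. Its mean deviation was −0.16 in the base, −0.11 in the lid, −0.14 in the alpha ring and −0.14 in the assembly chaperones. Diabetic replicate 1 was the highest for 1 of the 7 alpha ring genes. Summed FPKM of base and lid was 291, 251 and 229 in diabetic and 271, 266 and 257 in normal libraries, so the diabetic libraries spanned a wider range on both sides. On the quantile-normalized log2 scale the SD was larger in the diabetic group for 15 of the 17 base and lid genes, against 59.1% of protein coding loci. On that scale it was larger for 6 of the 14 constitutive core genes, although their median SD was 0.11 in diabetic and 0.087 in normal libraries. In FPKM the SD was larger in the diabetic group for all core genes but *Psma6*, *Psmb3*, *Psmb5* and *Psmb7*, so the count for the core depends on the scale. The sign of the comparison therefore depended on the library: 11 of 17 base and lid genes were negative with all libraries (51% of all loci were), 14 without diabetic replicate 1 and 6 without diabetic replicate 3. For all 45 genes 25 were negative with all libraries, 31 without diabetic replicate 1 and 22 without diabetic replicate 3.

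**Figure D3:**
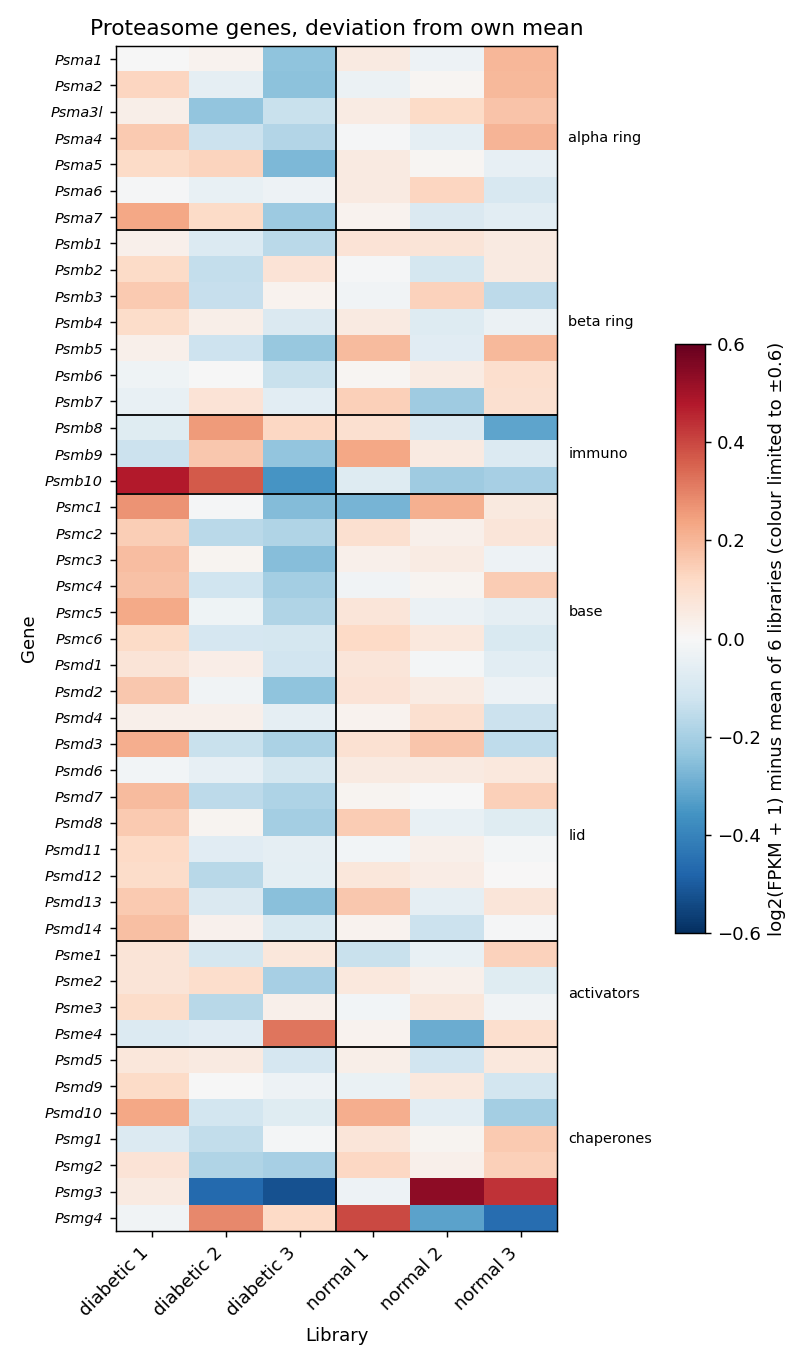
Deviation of each proteasome gene from its own 6-library mean, as log2(FPKM + 1), in diabetic (left) and normal libraries, with classes separated by lines. Red is above and blue below the mean, without quantile normalization. After quantile normalization, which is not drawn here, diabetic replicate 1 is the highest library for 11 of 17 base and lid genes. Diabetic replicate 3 is then the lowest for 10, and for 5 of the 7 alpha ring genes.

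Levels of other gene groups also differed between these libraries, and none of the genes in the lists below was called. The mean deviation of 8 genes of handling and stress (such as *Fos* and *Hspa1b*) was 0.88, −0.97 and −0.51 in diabetic replicates 1, 2 and 3 and 0.14, −0.21 and 0.67 in the normal libraries, and their summed FPKM ranged from 302 to 575 in diabetic and from 320 to 586 in normal libraries. *Lim2*, a membrane protein of lens fibres, and *Cryba4*, a crystallin, had no counts in diabetic replicate 3, and *Lim2* none in diabetic replicate 1 either. Transcripts of the lens, a tissue next to the cornea, summed over 10 markers to 163, 1344 and 8.59 FPKM in diabetic replicates 1, 2 and 3 and to 121 to 392 FPKM in normal libraries. Of 9 stromal markers 7 had a log2 fold change below 0 (median −0.22), while *Vim* (0.43) and *Aldh1a1* (0.28) were above 0. Only 1 of the 9, the keratocyte proteoglycan *Lum*, lay below without overlap, as did 5.72% of all loci. *Lum* was at 102 to 122.9 FPKM in diabetic and 148 to 172 FPKM in normal libraries (log2 fold change −0.48, unadjusted limma p 0.011). Stromal markers summed to 900 to 1017 FPKM over 9 genes in diabetic and to 964 to 1221 FPKM in normal libraries. The 3 conjunctival markers tested of 4 listed summed to 1223, 1189 and 550 FPKM in diabetic and 870 to 1442 FPKM in normal libraries. Among them *Krt19* shares its locus with the corneal marker *Krt14*, so its part of the sum is uncertain. The part of these differences in the proteasome values was not tested.

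**Figure D4:**
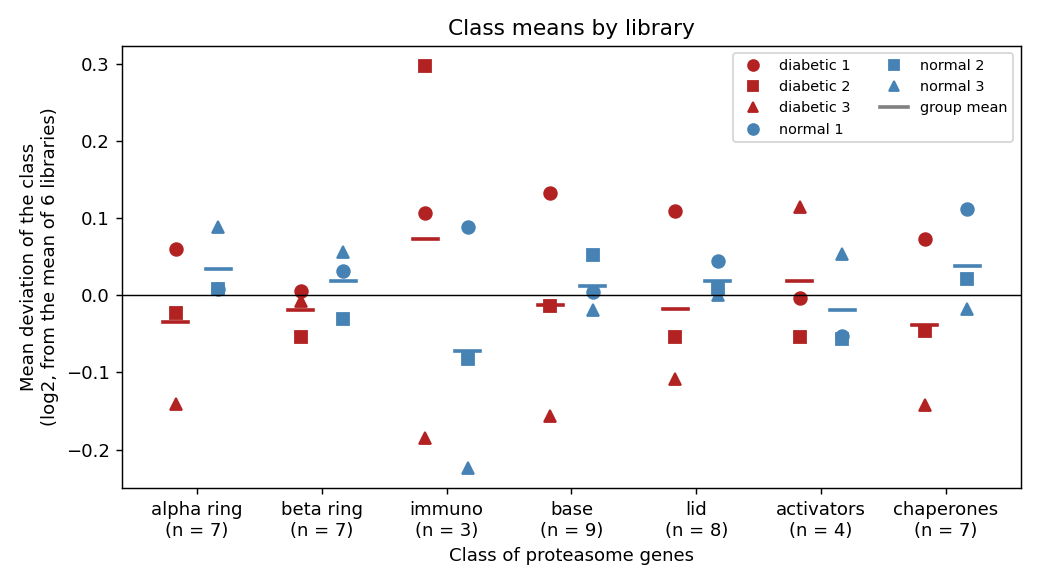
Mean deviation of each class of proteasome genes (log2, from the 6-library mean) by library, diabetic in red on the left and normal in blue on the right of each class; short lines are group means. In base and lid, diabetic replicate 1 is the highest and diabetic replicate 3 the lowest library, while the 3 normal libraries lie between them. Diabetic replicate 3 is the lowest library also in the alpha ring and the assembly chaperones.

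The activators open the gate of the core without ubiquitin, and their 4 genes had 2 positive and 2 negative log2 fold changes. *Psme4*, which caps nuclear cores that degrade histones, had the highest mean of all 45 genes, with 82.8, 83.5 and 110 FPKM in diabetic and 88.9, 71.1 and 94.1 FPKM in normal libraries (0.12, SE 0.18). Unlike base and lid, its highest value was in diabetic replicate 3. *Psme1* and *Psme2* form the interferon-inducible ring together. *Psme1* was at 66.2, 58.2 and 65.8 FPKM in diabetic and 57.1, 60.9 and 69.0 FPKM in normal libraries (0.039, SE 0.13). *Psme2* was at 24.9, 25.4 and 20.4 FPKM in diabetic and 24.7, 24.1 and 22.4 FPKM in normal libraries (−0.0056, SE 0.10), with an interferon element 53 bases before its start. *Psme3*, the nuclear member of the same family, was at 6.14, 4.88 and 5.74 FPKM in diabetic and 5.53, 5.93 and 5.51 FPKM in normal libraries. Its locus is joined to *Aoc3* and *G6pc* over 14215 bases of merged length, so this value is uncertain. The signs of *Psme2* and *Psme3* turned with the test on counts.

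Of the 7 assembly chaperones 4 had values above 0 and 3 below, with a median of 0.022. *Psmg3*, which works with *Psmg4* as a pair in building the alpha ring, was at 2.51, 1.44 and 1.35 FPKM in diabetic and 2.31, 3.91 and 3.56 FPKM in normal libraries. Diabetic replicates 2 and 3 were the lowest of all libraries, while diabetic replicate 1 lay above normal replicate 1, so the groups overlapped. The log2 fold change was −0.62 (SE 0.22), with an unadjusted limma p of 0.025 and an adjusted limma p of 0.953 (0.991 with edgeR and 0.905 with DESeq2), and it ran from −0.80 to −0.49 when each library was left out. The counts behind it were 198, 82 and 79 in diabetic and 165, 271 and 264 in normal libraries. *Psmg4* was at 5.41, 6.93 and 6.06 FPKM in diabetic and 7.54, 4.20 and 3.73 FPKM in normal libraries (0.28, SE 0.23), and the pair thus had opposite signs. Its value rested partly on normal replicate 1, the highest library, without which it was 0.54, and it was 0.11 without normal replicate 3. *Psmg1*, which with *Psmg2* starts the alpha ring, was at 6.43, 6.11 and 6.81 FPKM in diabetic and 7.28, 6.96 and 7.79 FPKM in normal libraries (−0.15, SE 0.10). *Psmd10*, a chaperone of the base also known as an oncoprotein, had the lowest mean of the 45 genes, with 1.97, 1.34 and 1.40 FPKM in diabetic and 1.94, 1.42 and 1.19 FPKM in normal libraries. The other 3 chaperone genes had log2 fold changes of −0.19 (*Psmg2*), 0.022 (*Psmd5*) and 0.072 (*Psmd9*). Of the genes that share the names alone, *Psmc3ip* was at 1.21 to 1.48 FPKM in diabetic and 1.201 to 1.78 FPKM in normal libraries, and *Psme3ip1*, on a locus joined to another gene, at 3.68 to 4.28 FPKM in diabetic and 4.21 to 4.63 FPKM in normal libraries. Neither was called.

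Genes around the proteasome likewise held no call. Of 10 partners and assembly factors tested, 4 were positive and 6 negative, with a median of −0.024. *Uchl5*, a deubiquitinase of the base, was at 3.63, 5.10 and 1.36 FPKM in diabetic and 5.17, 5.29 and 5.43 FPKM in normal libraries (−0.63, SE 0.33), without overlap and mostly through diabetic replicate 3. Its locus is joined to *Glrx2*, a glutaredoxin, so the value is uncertain. *Pomp*, which matures the core, was at 21.5, 15.9 and 13.0 FPKM in diabetic and 21.6, 24.0 and 14.5 FPKM in normal libraries (−0.22, SE 0.22). *Adrm1*, the ubiquitin receptor that holds *Uchl5*, was at 12.9, 10.9 and 9.69 FPKM in diabetic and 12.4, 12.2 and 12.0 FPKM in normal libraries. It was highest in diabetic replicate 1 and lowest in diabetic replicate 3. The list did not share this order, as *Usp14*, *Ube3c* and *Ecpas* were highest in diabetic replicate 3 (10.1, 7.48 and 9.81 FPKM).

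Of 6 regulators of subunit transcription, 2 were positive and 4 negative. *Nfe2l1*, the transcription factor that raises proteasome genes when the proteasome is impaired, was at 14.2, 15.3 and 16.1 FPKM in diabetic and 7.65, 16.5 and 6.23 FPKM in normal libraries (0.67, SE 0.30, limma p 0.058 before and 0.953 after adjustment). The diabetic libraries were alike, and normal replicate 2 lay above all of them. *Ddi2*, the protease that activates *Nfe2l1*, was at 5.70, 5.40 and 6.01 FPKM in diabetic and 5.76, 6.02 and 8.20 FPKM in normal libraries (−0.17, SE 0.14). *Zfand2a*, an arsenite-inducible protein that binds the proteasome, was at 1.60, 1.45 and 1.06 FPKM in diabetic and 1.88, 2.22 and 1.33 FPKM in normal libraries (−0.22, SE 0.19). Of 8 genes that deliver substrates, 4 were positive and 4 negative. *Ubqln1*, a shuttle for ubiquitylated proteins, lay above without overlap, at 8.92, 8.69 and 9.38 FPKM in diabetic and 8.49, 8.09 and 7.96 FPKM in normal libraries (0.14, SE 0.09). The cofactors of the unfolding enzyme *Vcp* had opposite signs. *Ufd1* was at 17.6, 12.4 and 13.6 FPKM in diabetic and 17.4, 15.8 and 18.0 FPKM in normal libraries (−0.21). *Nploc4* was at 18.6, 15.8 and 18.1 FPKM in diabetic and 18.4, 9.02 and 17.7 FPKM in normal libraries (0.29), with normal replicate 2 alone low.

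*Rps27a*, which encodes ubiquitin fused to a ribosomal protein, was at 131, 128 and 138 FPKM in diabetic and 145, 138 and 137 FPKM in normal libraries (−0.074, SE 0.11), and its groups overlapped. Of 10 loci of antigen processing tested, 4 were positive and 6 negative. *Cd74*, the invariant chain of MHC class II, was at 2.68, 3.35 and 3.21 FPKM in diabetic and 5.25, 8.03 and 3.97 FPKM in normal libraries (−0.67, SE 0.22, limma p 0.017 before and 0.953 after adjustment), without overlap. *Tapbp*, which loads peptides on MHC class I, was at 3.34, 7.57 and 3.13 FPKM in diabetic and 3.54, 3.95 and 2.60 FPKM in normal libraries (0.32, SE 0.30), with diabetic replicate 2 alone high. Its locus is joined to *Zbtb22*, so the value is uncertain. *Erap1*, which trims the peptides that the proteasome makes, was at 9.16, 10.1 and 10.8 FPKM in diabetic and 10.3, 7.95 and 9.45 FPKM in normal libraries (0.13, SE 0.12), on a locus joined to a ribosomal RNA gene.

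A further 16 assembled loci without an annotated type carried the symbols of 10 of the genes, at means of 0.837 to 9.29 FPKM. Of these, 6 ran opposite to the gene's strand, 3 on the same strand and 7 had no strand, and 0 were called. Only a locus of 289 bases opposite to *Psmd12*, at chr10:95709318-95709606 (rn6), did not overlap between groups. It was at 9.97, 5.87 and 4.59 FPKM in diabetic and 11.0, 9.99 and 14.3 FPKM in normal libraries (−0.74, SE 0.25). It lies within the span of *Psmd12*, at chr10:95706685-95726790, and strand-specific counting is not stated in the sources used here, so reads of the gene and of this locus cannot be told apart.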

How the data were processed

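RNA of scraped corneal epithelium was measured in 3 diabetic and 3 normal libraries, grouped by their labels. The submitters' processing notes name cutadapt, FastQC, Bowtie2 and the build rn6; versions and the assembling program are not given in the sources used. The authors deposited whole counts per locus, not normalized, and FPKM scaled by locus length and library total. Where the count is 0 the deposited FPKM holds 0.0001 (86380 values), set to 0 here. The limit given for a count of 0 is 3 counts over the library total and covers counting error only.

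The members and lists were chosen with earlier results of these data known. The gene type was read as including protein coding, which adds 9 genes to the 38 whose type is protein coding alone. No symbol had more than 1 such row. *Psma3l* was placed in the alpha ring after the files were seen, because RefSeq lists it as a synonym of *Psma3*. Named genes are those of highest and lowest mean, of most positive and negative fold change and of smallest p in each class, all immunoproteasome, counterpart and activator genes, members without overlap, and up to 3 of smallest p per list; others were named for context. Some genes of the lists are not reported here.

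limma 3.58.1 in R 4.3.3 (eBayes with trend) tested quantile-normalized log2(FPKM + 1) over loci with a mean of at least 0.5 FPKM. The counts were also tested with edgeR 4.0.16 (TMM and RLE scaling) and DESeq2 1.42.0. Other alternatives were no quantile normalization, a pseudocount of 0.1, other filters, protein coding loci alone, no trend, a replicate block and leaving out each library. Ratios were compared by exact permutation (SciPy 1.17.1). Promoters came from RefSeq (GRCr8), and figures were drawn with matplotlib 3.10.9.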

Additional observations from a re-analysis of the deposited data

How the results depend on the processing

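The number of proteasome genes called was 0 under all alternatives run, including each library left out, for the 45 genes and for those whose type is protein coding alone. Ranges over the left-out libraries were −0.074 to 0.0034 for the median of all genes (lowest without diabetic replicate 1), −0.068 to 0.085 for the assembly chaperones, −0.10 to 0.026 for the constitutive beta ring, −0.14 to −0.026 for the alpha ring, −0.11 to 0.049 for the base, −0.11 to −0.0053 for the lid, −0.030 to 0.084 for the activators, 0.098 to 0.33 for the immunoproteasome and −0.23 to 0.049 for the ratio of *Psmb9* to *Psmb6* (log2). The log2 fold changes of 20 of the 45 genes crossed 0 when a library was left out. Besides *Psma5*, *Psmb2*, *Psmb3*, *Psmc1*, *Psmc3*, *Psmd4*, *Psmd5*, *Psmd8* and *Psmd11* these were *Psma6* −0.092 to 0.0043, *Psmb7* −0.11 to 0.068, *Psmc4* −0.19 to 0.0035, *Psmc5* −0.074 to 0.12, *Psmd10* −0.068 to 0.18, *Psmd2* −0.12 to 0.031, *Psmd3* −0.15 to 0.011, *Psme1* −0.041 to 0.12, *Psme2* −0.062 to 0.064, *Psme3* −0.062 to 0.057 and *Psme4* −0.044 to 0.23. *Psmb7* also turned with edgeR (−0.00093), without quantile normalization (−0.017) and over protein coding loci alone (−0.011). *Psme2* turned with edgeR (0.019 with TMM, 0.024 with RLE) and DESeq2 (0.024), and *Psme3* with edgeR (0.0050 with TMM, 0.0099 with RLE) and DESeq2 (0.010). The cause was not tested.

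The labels number the libraries 1 to 3 in each group without saying that a number is shared. Deviations of same-numbered libraries correlated at −0.0092, 0.025 and 0.032 over 42551 loci, and those of other pairs at −0.072 to 0.053. Such correlations cannot tell whether same-numbered samples were handled together. With the replicate block 0 proteasome genes and 1 locus in all were called, against 11 without it, and the median of the 45 genes was −0.010. With 3 libraries a group, the lack of a call does not show the lack of a change. The 95% intervals are not adjusted for the number of loci tested, so changes larger than their width can also go uncalled. *Psmg3*, whose interval does not hold 0, had an adjusted limma p of 0.953. Counts over all loci also moved: 99 were called with DESeq2, 6 with edgeR, 6 at a pseudocount of 0.1, 3 without a filter and 3 over protein coding loci alone. Leaving out 1 library gave 3 to 10.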
